A study of Sus scrofa with 12 samples.

Results

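The myosin binding protein genes MYBPC1, MYBPC2 and MYBPH were examined for open chromatin in the longissimus dorsi, the long muscle of the back, of Duroc and Luchuan pigs. A peak interval was assigned to a gene when its midpoint lay in the gene body of the Sscrofa11.1 annotation or within 10 kb of it. This gave 110 of the 217213 intervals, of which 65 belonged to MYBPC1, 26 to MYBPC2 and 19 to MYBPH. ATAC-seq, in which a transposase cuts accessible DNA and open chromatin therefore gathers more reads, was done on 3 male pigs of the Duroc breed and 3 of the Luchuan breed. All of them were 180 days old and were kept on the same feeding regime, and no further treatment was given in the labels. Each interval carried 1 read count per breed and not 1 per animal, so no value has a spread between pigs and no test between the breeds was possible.

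Myosin binding protein C molecules sit in regular stripes on the thick filament of the sarcomere, the contractile unit of muscle. They bind myosin and titin, can reach actin, and tune how myosin heads take part in contraction. MYBPC1 encodes the slow skeletal form, which is also present in many fast fibers, and MYBPC2 encodes the fast skeletal form. MYBPH encodes myosin binding protein H, a shorter relative that shares the myosin-binding end of the C proteins.

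MYBPC1 lies on chromosome 5 from 82557975 to 82651237 and is the longest of the set, with 93.3 kb. MYBPC2 lies on chromosome 6 from 55281991 to 55310184, and MYBPH on chromosome 9 from 113872439 to 113884544. Strand and exons were not used here, so the ends of a gene are called lower and upper by position and neither is named as the promoter. Exons, introns and UTRs were not separated. The outermost assigned intervals lay 3.37 kb outside MYBPC1, 6.13 kb outside MYBPC2 and 3.0 kb outside MYBPH, with centred log2 ratios, as defined below, of -0.14, 3.7e-05 and -0.52. The nearest intervals that were left out lay 11.9, 13.1 and 18.2 kb away, with ratios of 0.14, -0.09 and 0.05, so the limit of 10 kb cut through no cluster of intervals.

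The table held 36568206 Duroc and 24532756 Luchuan reads over all intervals, and the median interval held 77 Duroc and 49 Luchuan reads. The breeds were therefore compared by the centred log2 ratio, which is the log2 of Luchuan over Duroc reads (1 added to each) after its median over the 145908 intervals common to both breeds was set to 0. A negative value means relatively more reads in Duroc, and values of -1 or 1 and beyond are called past 2-fold. The 95% interval in parentheses after a ratio covers counting error alone. Of the 7 muscle fiber markers, 6 matched a gene and all 6 had a region at a gene end, at 1031 to 1328 Duroc and 644 to 884 Luchuan reads per kb. The median interval of the table held 290 and 187 reads per kb. Markers of other cells were lower or without a region. The satellite cell genes PAX7 and MYF5 reached 405 Duroc reads per kb at most, 3 of 3 fibroblast genes reached 288, 1 of 3 endothelial genes had a region with 348, and 1 of 3 adipocyte genes had one with 228. Of the immune genes, 2 of 3 had a region, with CD68 the higher at 633, and of 3 hepatocyte genes APOA1 had one with 573 while ALB and TTR had none. Summed over the gene ends, the muscle fiber markers had a centred log2 ratio of -0.24 (-0.27 to -0.21), with 5 of 6 genes below 0. The fibroblast list stood at -0.30 (-0.70 to 0.10), the satellite cell list at -0.18 (-0.42 to 0.06), the immune list at -0.04 (-0.23 to 0.14) and the adipocyte gene PLIN1 at 0.30 (-0.20 to 0.79). In bulk muscle, a larger share of fiber nuclei and more open chromatin per nucleus cannot be told apart, and the part of cell makeup in the values of the myosin binding protein genes was not tested.

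Across the myosin binding protein genes, most intervals carried relatively more reads in Duroc, but few by a large factor. The centred log2 ratio was below 0 in 92 of 110 intervals, where the median over all intervals of the table was -0.006. The share of all intervals below 0 was not computed. Among the 110, 16 were called in Duroc alone and 4 in Luchuan alone, and such intervals lean to their breed by construction. Of all 217213 intervals, 44532 were called in Duroc alone and 26773 in Luchuan alone. Regions found in both breeds are listed more than once. With overlapping intervals joined as described below, 52 of 60 regions were below 0, and the share over all regions was likewise not computed. Past 2-fold and higher in Duroc were 5 of the 110 intervals, which is 4.55% against 4.00% of all intervals in the table. Past 2-fold and higher in Luchuan were 0 of the 110, against 5.09% of all intervals. Of the 5, MYBPC1 held 2, MYBPH held 3 and MYBPC2 held none.

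An interval found in both breeds is listed once for each breed, so overlapping or adjoining intervals were joined into merged regions, and the longest interval of a merged region stood for it. The genes then held 60 of 140030 regions, namely 38 in MYBPC1, 14 in MYBPC2 and 8 in MYBPH. Past 2-fold and higher in Duroc were 3 of 60 regions, or 5% against 5.40% of all regions, and 0 of 60 were higher in Luchuan against 7.32%. The counting interval lay wholly below 0 in 23 of 60 regions, or 38.3% against 16.0% of all regions. It lay wholly above 0 in 1 of 60, or 1.67% against 13.2%, and spanned 0 in the other 36. These regions held a median of 284 reads over both breeds against 100 for all regions. Deeper regions have narrower counting intervals, so the shares by counting interval are not at equal depth. The shares past 2-fold are not at equal depth either, because ratios of shallow regions vary more by counting. In the table, intervals called in Luchuan alone held a median of 37 reads, and no region of these genes held fewer than 89.

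**Figure D1:**
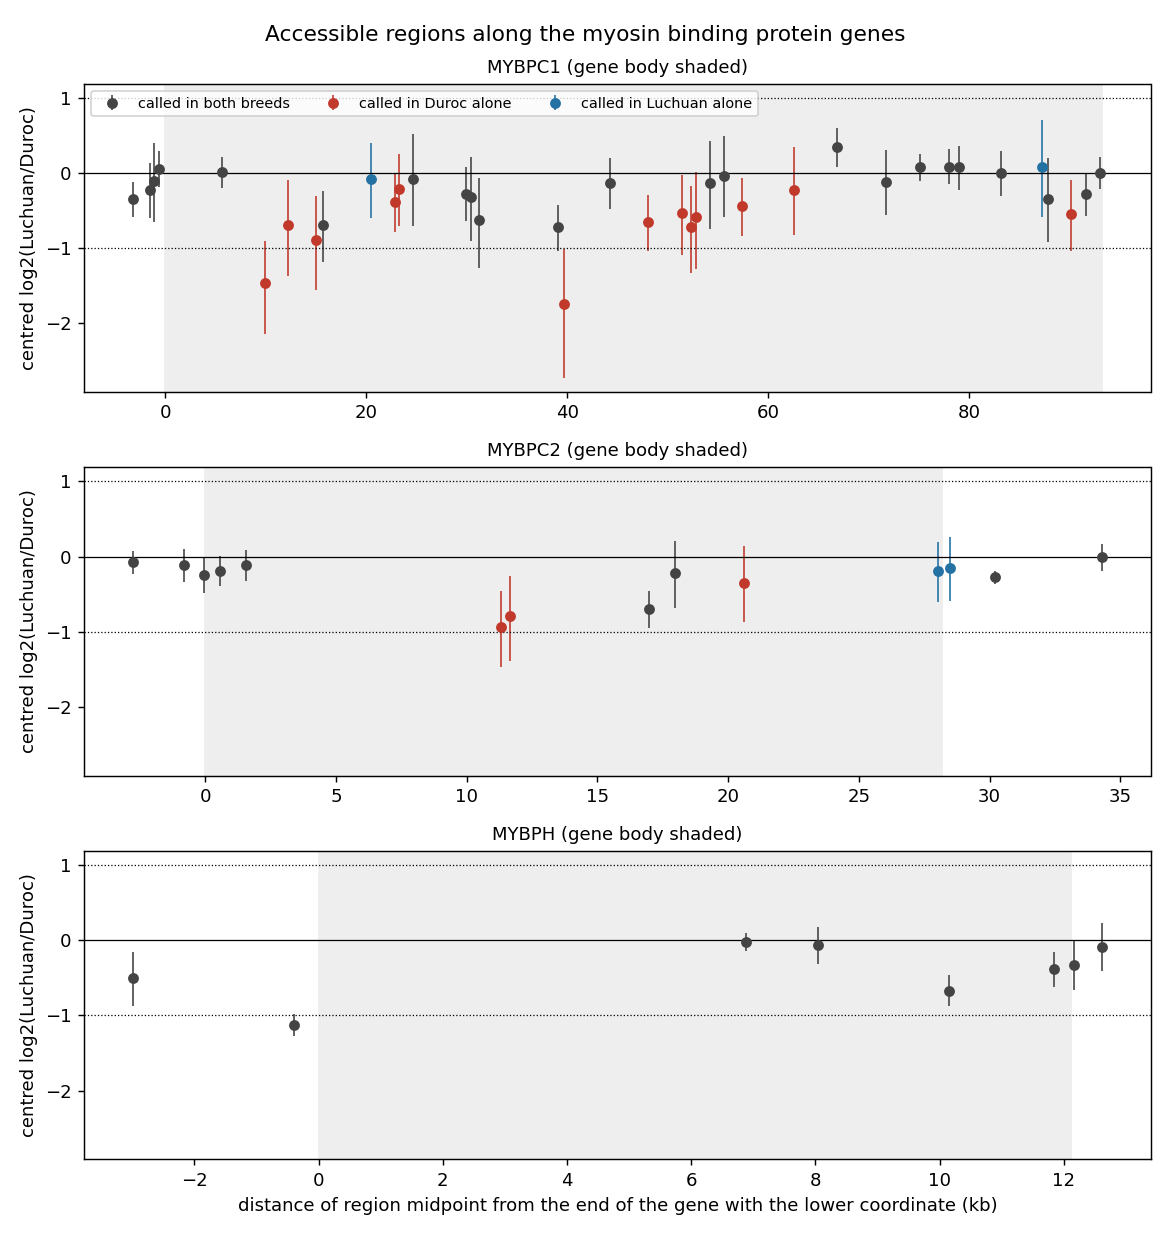
Centred log2 ratio of Luchuan over Duroc reads (y axis, negative for more reads in Duroc) against distance in kb from the lower end of the gene (x axis), with 1 panel per gene and 1 point per merged region. Bars are 95% counting intervals, shading is the gene body, dotted lines mark a 2-fold difference, and color gives the breed in which a region was called (grey for both, red for Duroc alone, blue for Luchuan alone). MYBPC1 shows 2 interior points below -1, MYBPC2 none, and MYBPH 1, at its lower end.

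MYBPC1 had relatively more reads in Duroc when all of its regions were summed, with both of its larger differences inside the gene. Its 38 merged regions held 6947 Duroc and 4135 Luchuan reads, a centred log2 ratio of -0.19 (-0.25 to -0.14). Scaled by the clean reads of the libraries in place of the common intervals, the sum was -0.38. Over all 16985 protein-coding genes with reads in both breeds, the median of the same sum was -0.01 and the middle 50% ran from -0.15 to 0.14. A value as low as that of MYBPC1 was found in 20.02% of genes.

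Summed over its 5 end regions, MYBPC1 was close to balance at -0.08 (-0.20 to 0.05). At the lower end, the interval with the most reads ran from 82557006 to 82557641 and held 358 Duroc and 253 Luchuan reads, a ratio of 0.06 (-0.18 to 0.29). At the upper end, the interval from 82650707 to 82651354 held 449 Duroc and 306 Luchuan reads, a ratio of 0.004 (-0.21 to 0.22). Both counting intervals spanned 0, as did those of all 5 end regions. The lowest of the 5, from 82649444 to 82649831, was named after its values were seen. It held 278 Duroc and 155 Luchuan reads, a ratio of -0.28 (-0.58 to 0.001). The interval called in Luchuan that overlaps it stood at -0.30 (-0.61 to -0.0007), just below 0. The interior interval with the most reads, from 82632735 to 82633454, was close to balance with 595 Duroc and 425 Luchuan reads and a ratio of 0.07 (-0.11 to 0.25).

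Both MYBPC1 intervals past 2-fold lay inside the gene and were called as peaks in Duroc alone. The first ran from 82567752 to 82568000, 9.90 kb from the lower end, and held 121 Duroc and 29 Luchuan reads. Its ratio was -1.47 (-2.14 to -0.91), which is 2.77 times as many reads in Duroc after centring, and it was also the lowest interior interval among those at or above the median depth of the table. The second ran from 82597594 to 82597766, 39.7 kb from the lower end, with 78 Duroc and 15 Luchuan reads and a ratio of -1.75 (-2.73 to -1.01), or 3.36 times. Next to it, the common interval from 82596821 to 82597363 held 317 Duroc and 130 Luchuan reads, a ratio of -0.72 (-1.04 to -0.43), so the Duroc excess there was not confined to an interval called in a single breed. This neighbor was named after its values were seen. In reads per kb, the Duroc level of both intervals, 486 and 451, lay near the median of 450 for interior regions of the gene, while the Luchuan level, 116 and 86.7, lay below the interior median of 234.

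Peaks called in a single breed are chosen by their reads, so their ratios lean to that breed by construction. Of the 65 intervals of MYBPC1, 13 were called in Duroc alone and 2 in Luchuan alone, against 44532 and 26773 of all 217213. The 13 had a median ratio of -0.59, and 2 of them, or 15.4%, were past 2-fold, a share near the 14.7% of the 44532 such intervals in the table, whose median ratio was -0.37. Their depth also differed, with a median of 142 reads for the 13 and 58 for the table. MYBPC2 had 3 intervals called in Duroc alone and MYBPH had 0.

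The breed ratio was not even along MYBPC1. When the gene was divided by position into 3 stretches of 31.1 kb, a division chosen after the values were seen, the 11 regions of the lower stretch summed to -0.32 (-0.44 to -0.20), the 11 of the middle stretch to -0.54 (-0.67 to -0.41) and the 12 of the upper stretch to 0.004 (-0.08 to 0.09). In the middle stretch 11 of 11 regions were below 0, and in the upper stretch 6 of 12 were. More regions of the middle stretch than of the upper one were called in Duroc alone. Such regions lean to Duroc by construction, so these counts partly restate the calling. The region with the highest ratio, from 82624574 to 82625149, lay in the upper stretch with 268 Duroc and 231 Luchuan reads. Its ratio of 0.34 (0.08 to 0.60) was the only one of the 60 regions with a counting interval wholly above 0. The annotation places it inside the lncRNA gene LOC110260787, which runs from 82620307 to 82626133 within MYBPC1, so its reads cannot be assigned to either gene. With regions made of common intervals alone, the upper stretch stood at 0.03 over 9 regions and the rest of the gene at -0.27 over 10.

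MYBPC2, the fast skeletal form, also had relatively more reads in Duroc, and 25 of its 26 intervals were below 0 without any of them reaching 2-fold. Its 14 merged regions held 7487 Duroc and 4332 Luchuan reads, a ratio of -0.23 (-0.29 to -0.18), or -0.42 when scaled by clean reads. Of these reads, 4388 Duroc and 2608 Luchuan reads lay in the 3 flank regions, in or within 2 kb of SPIB and FAM71E1. The sum was therefore set mostly by chromatin outside MYBPC2, and the flank regions alone stood at -0.20 (-0.27 to -0.12). The sum over all 14 regions and that of MYBPC1 had overlapping counting intervals. A value as low was found in 16.0% of genes.

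The chromatin at the ends of MYBPC2 was more open than its interior in both breeds. The 6 end regions had a median of 1015 Duroc and 606 Luchuan reads per kb, whereas the 5 interior regions had 653 and 294. At the lower end, the interval from 55282290 to 55282786 held 563 Duroc and 336 Luchuan reads, a ratio of -0.19 (-0.39 to 0.01). At the upper end, the interval with the most reads, from 55311204 to 55311885, held 801 and 468 reads, a ratio of -0.22 (-0.39 to -0.05). It lies past the end of MYBPC2 and inside FAM71E1, whose gene body runs from 55310616 to 55316269, so it cannot be assigned to MYBPC2 alone. After merging it is part of the wide flank region described below, so it is not among the 6 end regions.

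Inside MYBPC2, 5 of 5 regions were below 0, but 3 of them were called in Duroc alone and so lean to Duroc by construction. The 2 upper-end regions were called in Luchuan alone. The interior interval with the most reads, from 55298628 to 55299283, held 462 Duroc and 193 Luchuan reads, a ratio of -0.70 (-0.95 to -0.46), or 1.62 times as many in Duroc. The lowest interior interval, from 55293196 to 55293395, was called in Duroc alone and held 131 and 46 reads, a ratio of -0.93 (-1.47 to -0.46), just short of 2-fold. The highest, from 55299933 to 55300116, held 119 and 73 reads and its ratio of -0.14 (-0.59 to 0.28) spanned 0. No interior interval leaned to Luchuan.

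The widest region near MYBPC2 ran from 55310942 to 55313446 over 2505 bases and held 2900 Duroc and 1630 Luchuan reads, a ratio of -0.28 (-0.36 to -0.19). Its midpoint lay 2.01 kb from the upper end, just outside the 2 kb limit for an end region, and inside FAM71E1. It was named for its width after its values were seen. Its reads include those of the upper-end interval named above, which are not separate evidence.

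MYBPH had the largest breed difference of the 3 genes. Its 8 merged regions held 5121 Duroc and 2523 Luchuan reads, a ratio of -0.47 (-0.54 to -0.40), and this counting interval did not overlap those of MYBPC1 and MYBPC2. A sum as low was found in 5.20% of genes. All 19 intervals were below 0, from -1.30 to -0.002.

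A single wide region set much of that sum. It ran from 113871159 to 113872921, over 1763 bases across the lower end of MYBPH, and held 1669 Duroc and 520 Luchuan reads. Its ratio was -1.13 (-1.27 to -0.98), which is 2.18 times as many reads in Duroc after centring. Intervals of at least 1500 bases made up 0.273% of the table. Without this region the other 7 regions of MYBPH held 3452 Duroc and 2003 Luchuan reads and summed to -0.23 (-0.31 to -0.15), close to the value of MYBPC2.

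The wide region was called in Duroc, and in Luchuan the same stretch held 3 separate, shorter intervals that each leaned the same way. The interval from 113871615 to 113871764 held 147 Duroc and 40 Luchuan reads, a ratio of -1.30 (-1.86 to -0.81). The one from 113872010 to 113872167 held 165 and 55 reads, a ratio of -1.01 (-1.50 to -0.58). These reads are part of those of the wide region and are not separate evidence. In the last of them, from 113872418 to 113872861, which begins near the first base of MYBPH, 418 Duroc and 183 Luchuan reads gave a smaller ratio of -0.63.

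The lower end of MYBPH lies inside ADORA1, the gene of the adenosine A1 receptor, whose body runs from 113835279 to 113875899 and shares 3461 bases with MYBPH. The wide region can therefore not be assigned to MYBPH alone. The other 6 regions in ADORA1 or within 2 kb of it, of which 1 also counts as a flank region of MYBPH, summed to -0.12, against -1.13 for the wide region, a comparison chosen after the values were seen. The difference of -1.01 (-1.19 to -0.82) was larger than counting error.

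At the upper end of MYBPH, the interval with the most reads ran from 113882303 to 113882886 and held 658 Duroc and 281 Luchuan reads, a ratio of -0.67 (-0.88 to -0.47). The upper end regions summed to -0.44 (-0.57 to -0.32) over 4 regions, and 3 of the 4 had counting intervals below 0. The 4th, from 113884925 to 113885179, held 216 and 138 reads, a ratio of -0.09 (-0.41 to 0.22).

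The interior of MYBPH, taken as more than 2 kb from both ends, was balanced between the breeds. Its most-read interval, from 113878712 to 113879918, held 1353 Duroc and 907 Luchuan reads, a ratio of -0.02 (-0.14 to 0.10). The lowest interior interval, from 113880305 to 113880643, held 342 and 222 reads, a ratio of -0.07 (-0.32 to 0.18). The highest, from 113879217 to 113879920, overlaps the first and held 838 and 569 reads, a ratio of -0.002 (-0.16 to 0.15). At this depth no difference was detectable in these interior regions. The upper-end region from 113882303 to 113882886, with a ratio of -0.67, also lies inside the gene. Its midpoint is 1.95 kb from the upper end, just within the 2 kb limit. The interior level of 1009 to 1121 Duroc reads per kb lay within the 847 to 1159 of the end regions. In Luchuan the interior level of 655 to 751 reads per kb lay above that of every end region, 295 to 601.

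**Figure D2:**
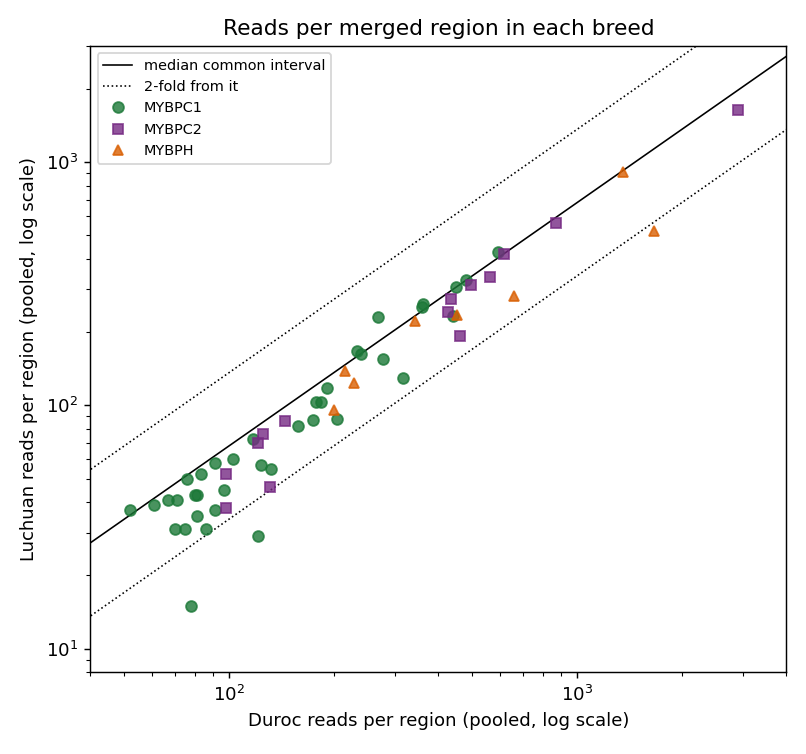
Luchuan reads (y axis) against Duroc reads (x axis) per region, both on log scales, for the 60 merged regions of MYBPC1 (circles), MYBPC2 (squares) and MYBPH (triangles). The solid line is the median common interval and the dotted lines lie 2-fold from it. Most points lie just under the solid line, and the 3 points past 2-fold are the MYBPC1 regions with 15 and 29 Luchuan reads and the MYBPH lower end with 520.

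The study's peaks were then compared between gene ends and gene interior, a difference in which any constant scaling between the breeds cancels. End regions have their midpoint within 2 kb of the first or last base, and interior regions lie in the gene beyond that. In MYBPC1 the 5 end regions summed to -0.08 and the 32 interior regions to -0.21. The difference of 0.14 (-0.003 to 0.28) was within counting error. With an end window of 1 kb, which left 2 end regions, it was 0.24 (0.07 to 0.41) and beyond counting error. With one of 5 kb, which gave 7 end regions, it was 0.04 (-0.08 to 0.16) and within it. Regions made of common intervals alone, chosen after seeing the data, gave -0.00086. In MYBPC2 the 6 end regions summed to -0.17 and the 5 interior regions to -0.63, a difference of 0.47 (0.27 to 0.66). With an end window of 1 kb it was 0.24 (0.07 to 0.42), and with one of 5 kb 0.43 (0.25 to 0.61). With regions made of common intervals alone, an alternative chosen after seeing the data, it was 0.43. In MYBPH the 5 end regions summed to -0.76 and the 2 interior regions to -0.03, a difference of -0.73 (-0.87 to -0.58). An end window of 1 kb moved the most-read upper-end region of MYBPH into the interior and gave -0.60 (-0.74 to -0.46). One of 5 kb left 1 interior region and gave -0.64 (-0.79 to -0.50).

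The genes thus did not share a pattern, since the Duroc excess was larger inside MYBPC2 and larger at the ends of MYBPH. Among 5036 genes with at least 100 reads per breed in both classes, the median of the same difference was 0.10 and the middle 90% ran from -0.37 to 0.65. The value of MYBPH lay below that range, with 1.03% of genes as low. The value of MYBPC2 lay within it, with 11.4% of genes as high, as did that of MYBPC1, with 44.1%. Without the regions that lie in or within 2 kb of ADORA1, the difference in MYBPH was -0.41.

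**Figure D3:**
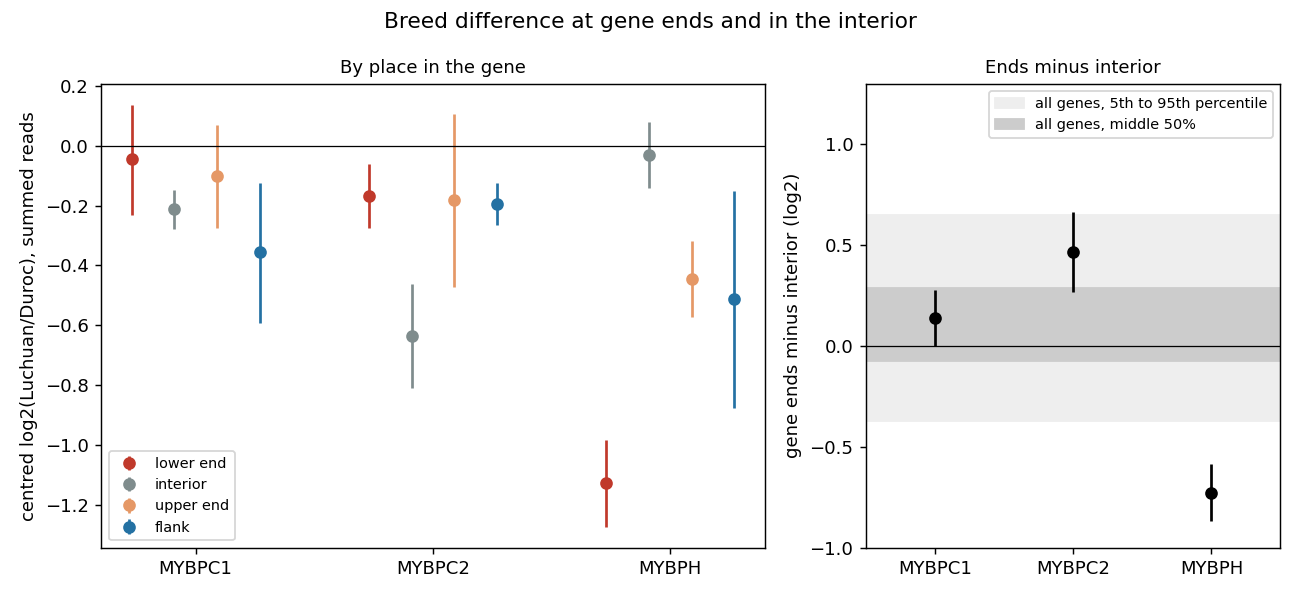
The left panel plots the centred log2 ratio of summed reads (y axis) at the lower end, interior, upper end and flank of MYBPC1, MYBPC2 and MYBPH (x axis), and the right panel plots gene ends minus interior (log2) for the same genes, both with 95% counting intervals as bars. The interior lies lowest in MYBPC2 (-0.63) and highest in MYBPH (-0.03), and the difference of -0.73 for MYBPH lies under the light band that spans -0.37 to 0.65, the middle 90% of all genes (darker band, middle 50%).

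The regions of a gene also differed among themselves by more than counting error. The spread of the ratios over the regions of a gene, relative to what counting error alone would give (a value of 1), was 3.77 in MYBPC1, 3.20 in MYBPC2 and 22.6 in MYBPH. Over 9085 genes with at least 5 regions the median was 2.52. This measure grows with the reads per region for the same spread of ratios, so the values are not at equal depth. The median reads per region were 184 in MYBPC1, 662 in MYBPC2 and 626 in MYBPH, against 100 for all regions. Without the wide lower-end region the value of MYBPH was 6.21. More bases were called as peaks in Duroc, with 12050 bases called in Duroc and 8847 in Luchuan for MYBPC1, 7038 and 5118 for MYBPC2, and 4946 and 3627 for MYBPH. The same bases over the whole table were not computed. By number of intervals, MYBPC1 had 38 called in Duroc and 27 in Luchuan. MYBPC2 had 12 and 14 and MYBPH 9 and 10, so there the count went the other way. The Duroc data were deeper, and the part of depth in the called bases was not tested.

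A list of 24 other genes of the thick filament and the M-band, where thick filaments are linked at their middle, was set beside them. MYH3 and MYH8 matched no gene by symbol, and 22 genes had regions. The summed ratio was below 0 in 17 of the 22 and above 0 in 5, with a median of -0.19 against -0.01 for all genes. The counting interval lay below 0 in 15 and above 0 in 4, but the same share over all genes was not computed. Sums of many reads have narrow intervals, so that TTN counted as above 0 at 0.03 (0.008 to 0.05). At least 1 region past 2-fold and higher in Duroc was held by 8 of the 22, or 36.4%, against 20.8% of all genes with a region, but these genes held 590 regions in all and longer genes have more chances. Past 2-fold and higher in Duroc were 26 of the 590 regions, or 4.41% against 5.40% of all regions, and higher in Luchuan were 2, or 0.339% against 7.32%. These shares were not matched for depth. CKM and MYLPF of this list are also muscle fiber markers.

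Of the family members outside the set, MYBPC3, the cardiac form, had few reads, with 899 in Duroc and 539 in Luchuan over 5 regions, and a ratio of -0.18 (-0.34 to -0.03). MYBPHL, the myosin binding protein H-like gene, leaned the other way with 846 and 657 reads over 3 regions and a ratio of 0.19 (0.04 to 0.34). The 5 family members thus did not all lean to the same breed. The 3 listed genes with sums nearest to that of MYBPC1 were MYOM2, an M-band protein, at -0.20 (-0.24 to -0.15), MYBPC3, and SMYD1, a muscle methyltransferase that acts with myosin chaperones, at -0.25 (-0.34 to -0.16). The list ran from -1.09 for MYL2, a regulatory myosin light chain of slow and cardiac muscle, to 0.29 for MYOM3, another M-band protein. MYBPH lay towards the lower side of it, beside CKM, the muscle creatine kinase, at -0.47 and MYL1, a fast myosin light chain, at -0.46, which were named after their values were seen.

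**Figure D4:**
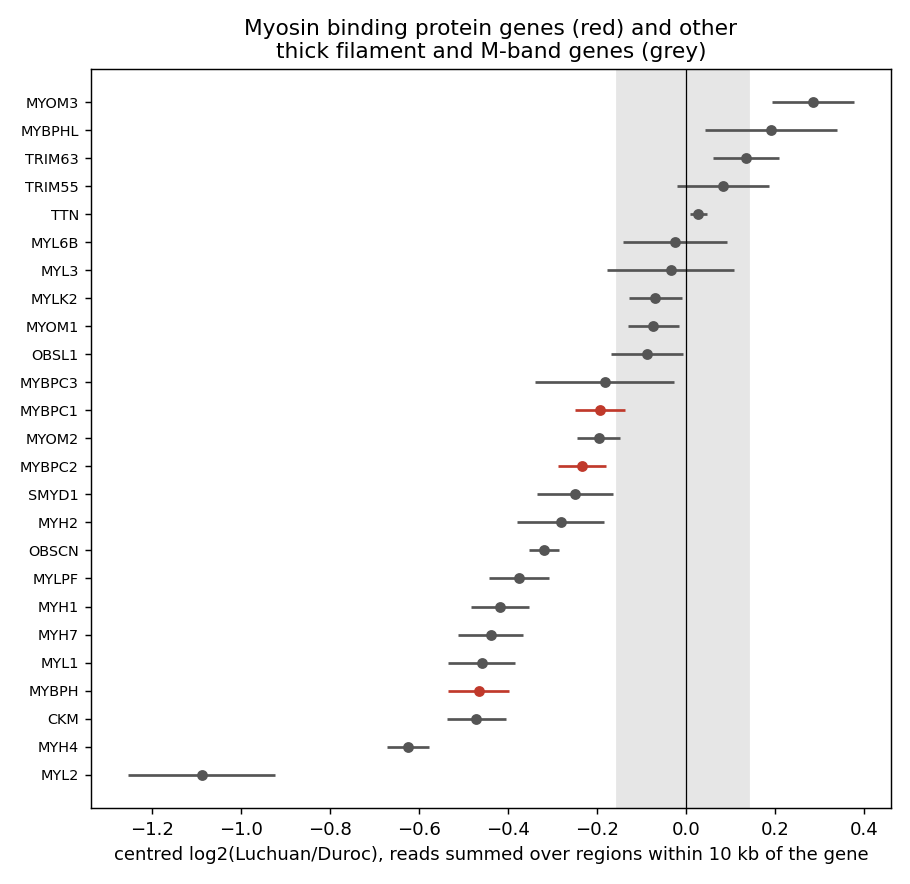
Summed centred log2 ratio of Luchuan over Duroc reads (x axis) with 95% counting intervals for MYBPC1, MYBPC2, MYBPH and 22 thick filament and M-band genes (y axis, ordered by value). The grey band is the middle 50% of all genes, from -0.15 to 0.14. Values run from -1.09 for MYL2 to 0.29 for MYOM3, with MYBPC1 at -0.19, MYBPC2 at -0.23 and MYBPH at -0.47.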

How the data were processed

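ATAC-seq reads were filtered (Trimmomatic 0.36), mapped to Sscrofa11.1 (Bowtie2) and used for peak calling (MACS2) by the authors. Duplicate removal, transposase shift and how animals were combined are not given in the sources used here. The authors deposited raw read counts, 1 per interval and breed, taken as pooled over the 3 pigs. Their rescaled log2 fold change, mean signal and P columns were not used. RNA-seq was not analysed here.

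Starts were shifted by 1 base, which makes the shortest interval 150 bases. Positions came from 19550 protein-coding genes of RefSeq. Ratios of summed reads had nothing added to the counts. Counting intervals of ratios are Clopper-Pearson and those of differences Woolf. They cover counting error only, because there is 1 count per interval and breed, and they take each read as independent. Without molecular identifiers a read need not be a separate molecule, so the counting error may be larger than these intervals give. Deeper regions are measured more precisely.

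Genes, lists and rules were chosen with earlier results of these data known. The rule named each interval past 2-fold, the most-read one at each end and in the interior, and the lowest and highest interior ones with at least 127 reads. It also named MYBPC3, MYBPHL and the 3 listed genes nearest to MYBPC1. Other names and divisions are marked where used. The muscle marker MB matched no gene. Code was tested on simulated data with SciPy 1.17.1, pandas 2.3.3 and NumPy 2.4.6 in Python 3.11.15, and figures were drawn with Matplotlib 3.10.9. The planned promoter motif search was not run, and no sequence was used here. Alternatives covered scaling, pseudocount, flank, end window, merging, depth and threshold.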

Additional observations from a re-analysis of the deposited data

How the results depend on the processing

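No result was reversed by more than its counting interval. Of the recomputed values, 38 stayed within the counting interval of the reported value or, for counts, within 1.5 times of it, and 8 did not. Scaling by the clean reads of the libraries gave 8 intervals past 2-fold in Duroc and sums of -0.38 for MYBPC1, -0.42 for MYBPC2 and -0.66 for MYBPH. Scaling by all reads in the table or a pseudocount of 5 gave 4 intervals, and merged regions gave 3. A flank of 2 kb gave a sum of -0.29 for MYBPC2, and an end window of 1 kb gave a difference between ends and interior of 0.24 for both MYBPC1 and MYBPC2, beyond counting error in both. For MYBPH it gave -0.60. An end window of 5 kb gave 0.04 for MYBPC1, within counting error, 0.43 for MYBPC2 and -0.64 for MYBPH. Chosen after seeing the data, leaving out regions in or near ADORA1 gave -0.41 for MYBPH, and common intervals alone gave -0.00086 for MYBPC1, whose reported value was already within counting error. No interval was past 2-fold in Luchuan under any alternative run. No paired analysis was possible because the count columns carry no replicate number, and no replicate could be left out for the same reason. The spread between pigs is unknown, so whether any difference here exceeds it was not tested. Shallow regions, such as the MYBPC1 interval with 15 Luchuan reads, have the widest intervals.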

Other observations

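The genes next to the myosin binding protein genes were summed over the gene body and 2 kb on both sides, a narrower flank than the 10 kb used for the myosin binding protein genes. SPIB, FAM71E1 and EMC10 held only regions that also belong to MYBPC2, and CHI3L1 held only regions that also belong to the upper end of MYBPH, so none of these 4 genes gives a separate value. CHPT1, below MYBPC1 on chromosome 5, shared none of its 12 regions and summed to -0.22 (-0.33 to -0.11), with 1950 Duroc and 1139 Luchuan reads and 1 region past 2-fold in Duroc. ADORA1 shared 2 of its 7 regions with MYBPH, and the other 5 held 1380 Duroc and 894 Luchuan reads and summed to -0.07 (-0.19 to 0.05).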
